A study of Rattus norvegicus with 18 samples.

Results

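The genes described here are a set named for the cytotoxic granule. Its 9 members (*Prf1*, *Nkg7*, *Gzma*, *Gzmb*, *Gzmk*, *Gzmm*, *Cst7*, *Ctsw* and *Srgn*) were chosen by gene symbol from the 32882 genes of each of 3 tables of rat RNA-seq values. Each symbol matched 1 row of every table. The cells were TMBP cells, CD4+ T cells of Lewis rats that recognize myelin basic protein and cause experimental autoimmune encephalomyelitis, a model of multiple sclerosis, when they are transferred into another rat. The cells were taken from recipient rats on day 3 after transfer and sorted by fluorescence, and bulk mRNA was sequenced with a kit that reads the 3′ end of each transcript. The 18 libraries formed 6 groups of 3. Edited (*Ets1*-KO) cells and controls came from the parenchyma of the spinal cord in one table and from the spleen in another, and another table held spleen cells edited at *Grk2* with their own controls.

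All cells had been transduced with a retroviral fluorescent protein, expanded and restimulated in culture with MBP, and electroporated with Cas9 and a guide RNA. Control cells carried BFP and a nontargeting guide (NT, given as WT in the sample labels), and KO cells carried GFP and a guide against *Ets1* or *Grk2*, so that the fluorescent protein and the edited gene cannot be told apart. The KO cells were an edited population and not a clone. KO and control cells were transferred together into Lewis rats of both sexes, whose ages were not given per group. Cells from the parenchyma were enriched on a Percoll gradient and those from the spleen with a CD4+ T cell kit, so that tissue and enrichment cannot be told apart.

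Killer lymphocytes carry granules that they release onto a target cell. Perforin opens the target's membrane, and granzymes, serine proteases held in the granule on the proteoglycan serglycin, enter and cleave proteins that lead to cell death. The granule is best known from CD8+ T cells and natural killer cells, but CD4+ T cells can also make its components. ETS1 is a transcription factor of lymphocytes, and GRK2 is a kinase that desensitizes G-protein-coupled receptors.

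Each parenchyma library held between 1246779 and 1546206 reads on genes. The range was from 898092 to 1213485 in the spleen controls of the *Ets1* experiment, from 1909862 to 2248258 in the spleen *Ets1*-KO libraries and from 1168268 to 1473215 in the *Grk2* experiment. The spleen *Ets1*-KO library of replicate 3 stood apart from its group, with a chi-square per degree of freedom of 8.15 and 8.45 against the other two, compared with 1.44 to 4.21 for all other pairs of one group, and no 2 libraries agreed within sampling noise. The 8 genes that define T cells (*Cd3d*, *Cd3e*, *Cd3g*, *Cd4* and others) summed to between 1691 and 2709 reads per 1000000 reads on genes (RPM) in every library. *Ets1* had 2400 ± 150 normalized counts in parenchyma controls and 2551 ± 183 (SD, n = 3) in parenchyma *Ets1*-KO libraries, and 2077 ± 135 and 2000 ± 324 in the spleen. Reads at the 3′ end do not show an edit elsewhere in a transcript, so this level does not check the knockout. *Grk2* had 158 ± 14.1 normalized counts in its controls and 68.3 ± 17.4 in *Grk2*-KO libraries.

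The promoters of the 4 members with the largest rises in parenchyma *Ets1*-KO cells are shown because these genes moved together. RefSeq promoter windows of build GRCr8, 250 bases before to 50 bases after the gene start, were matched for 8 of the 9 members (all but *Ctsw*). Capitals mark the RUNX core, TGTGGT or its reverse complement ACCACA.
*Prf1* (GRCr8 chr20:29788790-29789089, + strand): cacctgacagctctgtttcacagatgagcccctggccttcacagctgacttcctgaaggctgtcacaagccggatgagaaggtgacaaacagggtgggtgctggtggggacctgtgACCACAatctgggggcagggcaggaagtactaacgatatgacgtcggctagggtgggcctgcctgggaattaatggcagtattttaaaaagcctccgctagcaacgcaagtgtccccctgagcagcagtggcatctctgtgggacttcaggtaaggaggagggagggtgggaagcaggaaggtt
*Nkg7* (GRCr8 chr1:102981247-102981546, + strand): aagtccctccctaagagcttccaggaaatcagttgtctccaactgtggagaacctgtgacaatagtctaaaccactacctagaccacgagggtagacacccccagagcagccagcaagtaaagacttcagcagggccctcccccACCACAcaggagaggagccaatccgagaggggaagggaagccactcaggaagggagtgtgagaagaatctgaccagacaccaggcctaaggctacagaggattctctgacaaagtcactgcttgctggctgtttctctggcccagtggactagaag
*Cst7* (GRCr8 chr3:159857030-159857329, + strand): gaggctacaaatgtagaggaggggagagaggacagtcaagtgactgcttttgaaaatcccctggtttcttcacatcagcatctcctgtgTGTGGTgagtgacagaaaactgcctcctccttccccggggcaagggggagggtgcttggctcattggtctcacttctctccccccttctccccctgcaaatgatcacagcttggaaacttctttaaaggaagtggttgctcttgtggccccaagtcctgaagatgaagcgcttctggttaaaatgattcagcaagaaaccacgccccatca
*Gzma* (GRCr8 chr2:46485647-46485946, - strand): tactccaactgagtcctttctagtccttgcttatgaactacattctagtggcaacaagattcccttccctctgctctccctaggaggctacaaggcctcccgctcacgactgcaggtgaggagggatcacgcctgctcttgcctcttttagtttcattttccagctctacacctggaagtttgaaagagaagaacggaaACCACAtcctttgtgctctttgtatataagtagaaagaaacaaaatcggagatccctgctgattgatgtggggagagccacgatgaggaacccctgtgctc

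Each of these 4 windows held the RUNX core once, ending 129 bases before the start in *Prf1*, 101 in *Nkg7*, 156 in *Cst7* and 46 in *Gzma*. RUNX proteins are transcription factors of the T cell and natural killer lineages. Over the 8 windows, 7 held the core, all but *Srgn*, and *Gzmb* held it 3 times, whereas 17.3% of the 33469 rat promoters in the RefSeq table held it at least once. The ETS core, GGAA on either strand, was in all 8 windows, between 1 match in *Gzmk* and 6 in *Gzma*, but 95.8% of all promoters held it, with a median of 3 matches. The longer CCGGAA, which contains the ETS core, was found in the *Gzmm* window alone (15% of all promoters), and the T-box core GGTGTG in *Gzmk* and *Gzmm* (17.9% of all promoters). No match of the RUNX core overlapped a GGAA match in these windows. These are matches of letters in a short window and not binding sites.

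In the parenchyma, the mean levels of *Nkg7*, *Cst7*, *Prf1* and *Gzma* were 1.93 to 2.31 times as high in *Ets1*-KO cells as in the control cells transferred with them. *Nkg7*, *Cst7*, *Prf1*, *Gzma* and *Srgn* rose and *Ctsw* fell, so that 6 of the 7 members with enough reads to be tested passed the threshold (limma, Benjamini-Hochberg adjusted p under 0.05 over all genes tested). Among all 7002 genes tested in this comparison 5.23% passed. The median log2 fold change was 0.94 over the 7 tested members and -0.029 over all genes tested. The 7 include genes that reached the minimum mean of 10 normalized counts partly through their higher KO values, and *Gzmb* and *Gzmm* did not reach it. KO and control libraries did not overlap for 6 of the 7 members, compared with 18.4% of all genes. In bulk RNA, more cells of a type and more RNA per cell cannot be told apart.

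**Figure D1:**
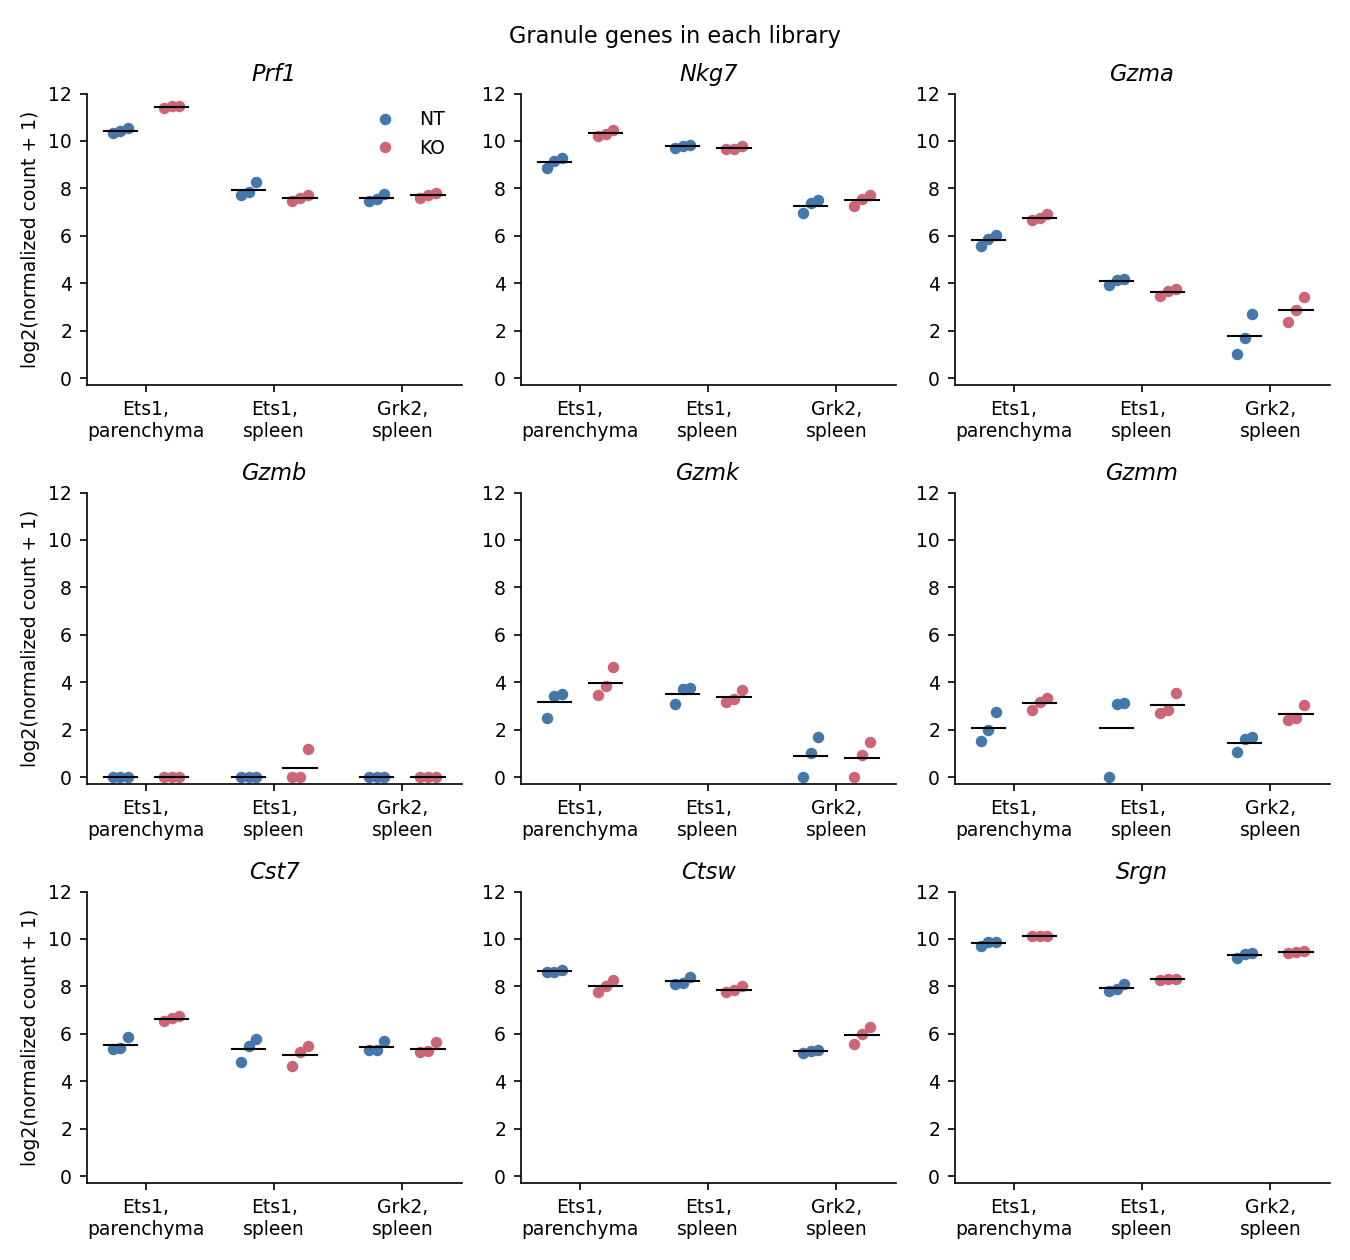
Level of each granule gene in each library, as log2(normalized count + 1), in the 3 tables, with controls (NT) in blue and KO libraries in red and black lines for the group means (n = 3). In the parenchyma the KO points of *Prf1*, *Nkg7*, *Gzma* and *Cst7* lie above the control points and those of *Ctsw* below. In the spleen of the *Ets1* experiment the group means of these genes lie closer together, and in the *Grk2* experiment the KO points of *Ctsw* lie above the control points. The tables were normalized separately.

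*Prf1* encodes perforin, the protein that forms the pore (ENSRNOG00000000562, Rnor_6.0 chromosome 20, 30915212 to 30921382). It had 1505, 1349 and 1274 normalized counts in replicates 1 to 3 of the parenchyma controls and 2703, 2831 and 2847 in those of the *Ets1*-KO cells. Every KO library was far above every control library, and the spread within either group was small. The log2 fold change was 1.02 ± 0.069 (SE; limma adjusted p = 1.78e-45), the 31st highest of 7002 genes.

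*Nkg7* encodes a membrane protein of the granule that is needed for its release (ENSRNOG00000017749, chromosome 1, 98492827 to 98493978). Control libraries had 617, 570 and 470 normalized counts and KO libraries 1185, 1393 and 1246. The groups did not overlap, and *Nkg7* had the largest log2 fold change of the members, 1.21 ± 0.079 (limma adjusted p = 2.87e-49), the 16th highest of all genes tested. It was higher in the KO library in 3 of 3 pairs, by 0.94, 1.29 and 1.40 on the log2 scale.

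*Gzma* encodes granzyme A, a tryptase (ENSRNOG00000010603, chromosome 2, 44968764 to 44981458). It had 64.5, 46.1 and 58.0 normalized counts in controls and 120, 99.1 and 105 in *Ets1*-KO cells. The lowest KO library was above the highest control library, and the log2 fold change was 0.94 ± 0.16 (limma adjusted p = 7.82e-07). *Gzmk*, its neighbour on chromosome 2 (ENSRNOG00000010661, 45068966 to 45077219), encodes granzyme K. Its values were low, 4.67, 10.3 and 9.83 in controls and 13.1, 10.1 and 23.8 in KO cells. These groups overlapped, and its log2 fold change of 0.83 (95% interval 0.055 to 1.60) did not pass (limma adjusted p = 0.246).

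*Gzmm*, the gene of granzyme M (ENSRNOG00000030530, chromosome 7, 12893431 to 12899004), stayed below the minimum in every table and was not tested in the main fit. It had 1.87, 5.64 and 2.95 normalized counts in parenchyma controls and 6.07, 9.10 and 7.93 in parenchyma *Ets1*-KO cells, from at most 9 reads in any of these libraries. The groups did not overlap, but with no filter on low values its log2 fold change of 1.03 had a limma adjusted p of 0.49.

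*Gzmb*, the gene of granzyme B, could not be assessed. It had 2 reads in all 18 libraries, both in 1 spleen *Ets1*-KO library, and 0 reads in the other 17. A count of 0 allows a level of up to 3 reads, between 1.42 and 3.34 RPM in these 17 libraries. Its Rnor_6.0 gene model (ENSRNOG00000045973, chromosome 15, 36327720 to 36472346) spans 144627 bases and overlaps 3 other annotated genes. Rat chromosome 15 also holds granzyme genes that resemble it, and counting reads per gene can split or drop reads that match several of them, so that the absence of reads on *Gzmb* does not show that granzyme B mRNA was missing.

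Reads did appear on one of these, *Gzmbl2* (chromosome 15, 35413792 to 35417316), which had 263 reads in all and is uncertain for the same reason. Its normalized counts in the parenchyma were 13.1, 7.52 and 11.8 in controls and 36.4, 14.2 and 20.4 in *Ets1*-KO cells. The groups did not overlap, and the log2 fold change of 0.99 ± 0.34 just missed the threshold (limma adjusted p = 0.0581). *Gzmbl3* had 1 read in the 3 parenchyma controls and 11 in the 3 KO libraries, *Gzmbl1* had 2 reads in all 18 libraries, and *Gzmc*, *Gzmf* and *Gzmn* had 0.

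*Cst7* encodes cystatin F, an inhibitor of the cathepsins that activate granzymes (ENSRNOG00000006767, chromosome 3, 146365091 to 146373365). It rose from 57.0, 40.4 and 41.3 normalized counts in controls to 100, 106 and 90.7 in *Ets1*-KO cells. The groups were well apart, with a log2 fold change of 1.10 ± 0.17 (limma adjusted p = 3.55e-08).

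*Ctsw* encodes cathepsin W, a cysteine protease of killer lymphocytes (ENSRNOG00000027096, chromosome 1, 220844557 to 220848153), and was the one member that went down. Controls were very alike, with 389, 407 and 389 normalized counts, and KO libraries had 215, 257 and 311. Every KO library was below every control library. The log2 fold change was -0.61 ± 0.098 (limma adjusted p = 8.90e-08), the 201st lowest of 7002 genes.

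*Srgn* encodes serglycin, the proteoglycan core of the granule (ENSRNOG00000000394, chromosome 20, 32120319 to 32139789). It had 935, 941 and 842 normalized counts in controls and 1107, 1106 and 1107 in KO cells, which did not overlap. Its rise was the smallest, 0.29 ± 0.076 on the log2 scale (limma adjusted p = 0.00578). It no longer passed when any 1 of the 3 pairs was left out, with adjusted p between 0.0519 and 0.0927.

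The small p-values in the parenchyma come from a fit that took its spread from the trend over all genes, with no finite prior degrees of freedom. Without the trend no member passed (adjusted p between 0.167 and 0.432), although 6 of the 7 tested had unadjusted p under 0.05, while edgeR and DESeq2 on the recovered reads passed the same 6 members. In the same libraries the 8 T cell markers summed to 2359 to 2470 RPM in controls and 2569 to 2709 in KO cells, and 12 myeloid markers to 17.5 to 36.9 and 31.2 to 46.1. Of the 7 T cell markers tested, 3 were higher and 4 lower in KO cells, and none passed. *Cd4* was lower without overlap (42.9 to 28.1 normalized counts, log2 fold change -0.60, limma adjusted p = 0.121). Such a lack of overlap, in either direction, was found for 18.4% of all genes tested. The part of these markers in these results was not tested.

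The summed markers of CD8 T cells and natural killer cells overlapped between genotypes, and single markers went both ways. *Cd8a*, *Klrk1* and *Fcgr3a* were higher in KO cells without overlap. Among all genes tested, which include *Klrk1* but not *Cd8a* or *Fcgr3a*, groups did not overlap in either direction for 18.4%. Mean normalized counts were lower in KO cells for *Klrd1* (27.0 to 22.3), *Klrc1* (36.6 to 35.7) and *Fcer1g* (2.86 to 2.44), with overlapping groups. The 15 measured CD8 T and NK cell markers summed to 230 to 285 RPM in parenchyma controls and 265 to 320 in *Ets1*-KO cells, of which *Klrc2* held the most. *Cd8b*, *Ncr1*, *Klrg1*, *Cd160* and *Klra1* had 0 reads in all these libraries, and none of the 5 markers with enough reads passed the test. *Cd8a*, which encodes a chain of the CD8 co-receptor, had 5 reads in the 3 parenchyma controls and 22 in the 3 KO libraries (means of 1.57 and 7.62 normalized counts), higher in the KO library in 3 of 3 pairs and without overlap. *Klrk1*, which encodes the receptor NKG2D, had 147 and 183 reads, and *Fcgr3a*, an Fc receptor gene, 2 and 7. *Cd8a* and *Fcgr3a* were too low to be tested, and the part of these markers in the granule genes was not tested. The 10 B cell markers summed to at most 4.96 RPM in the parenchyma libraries and at most 77.9 in the spleen, and the 7 measured mast cell and basophil markers to at most 3.14 in any library. The 8 markers of CNS cells, mostly *Mbp*, summed to 51.5 to 64.0 in parenchyma controls and 34.5 to 58.8 in KO cells.

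In the spleen, *Prf1*, *Nkg7*, *Gzma* and *Cst7* of *Ets1*-KO cells did not show the rise seen in the parenchyma, whereas *Srgn* was higher in every pair. None of the 7 tested members passed (limma; 0 also with edgeR and with DESeq2), whereas 2.22% of the 6979 genes tested passed. An unadjusted p under 0.05 was found for 3 of the 7 and for 14.1% of all genes tested. The median log2 fold change of the members was -0.24, compared with 0.00039 over all genes tested. KO and control libraries did not overlap for 4 of the 7 (*Prf1*, *Gzma*, *Ctsw* and *Srgn*), compared with 16.9% of all genes.

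*Prf1* had 307, 227 and 212 normalized counts in spleen controls and 176, 208 and 193 in spleen *Ets1*-KO cells. Controls were the higher group in all 3 pairs, and the log2 fold change was -0.35 (95% interval -0.64 to -0.064; limma adjusted p = 0.239). *Nkg7* had 835, 888 and 896 in controls and 810, 815 and 890 in KO cells. These groups overlapped, with a log2 fold change of -0.059 (95% interval -0.28 to 0.16), so that a rise of the size seen in the parenchyma lay outside the interval of both genes.

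*Srgn* had 238, 272 and 219 normalized counts in spleen controls and 320, 305 and 315 in KO cells, and *Ctsw* had 271, 278 and 338 in controls and 213, 228 and 256 in KO cells. The first lay above its controls and the second below in every pair, as in the parenchyma, with log2 fold changes of 0.37 (limma adjusted p = 0.133) and -0.34 (adjusted p = 0.165). *Srgn* passed when replicate 2 was left out (0.47, adjusted p = 0.0446).

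The other members were low in the spleen. *Gzma* had 16.4, 14.0 and 17.2 normalized counts in controls and 12.3, 9.92 and 11.9 in KO cells, at a log2 fold change of -0.45 (95% interval -1.21 to 0.31). *Cst7* had 53.6, 26.9 and 43.9 in controls and 36.3, 44.0 and 23.7 in KO cells, which overlapped widely. Its log2 fold change was -0.24, and 0.071 without replicate 3, whose KO library stood apart. *Gzmk* had between 7.53 and 12.5 normalized counts in all 6 libraries, and *Gzmm* between 0 and 10.6. The spleen KO libraries were sequenced more deeply than their controls, and the part of depth in these values was not tested.

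**Figure D2:**
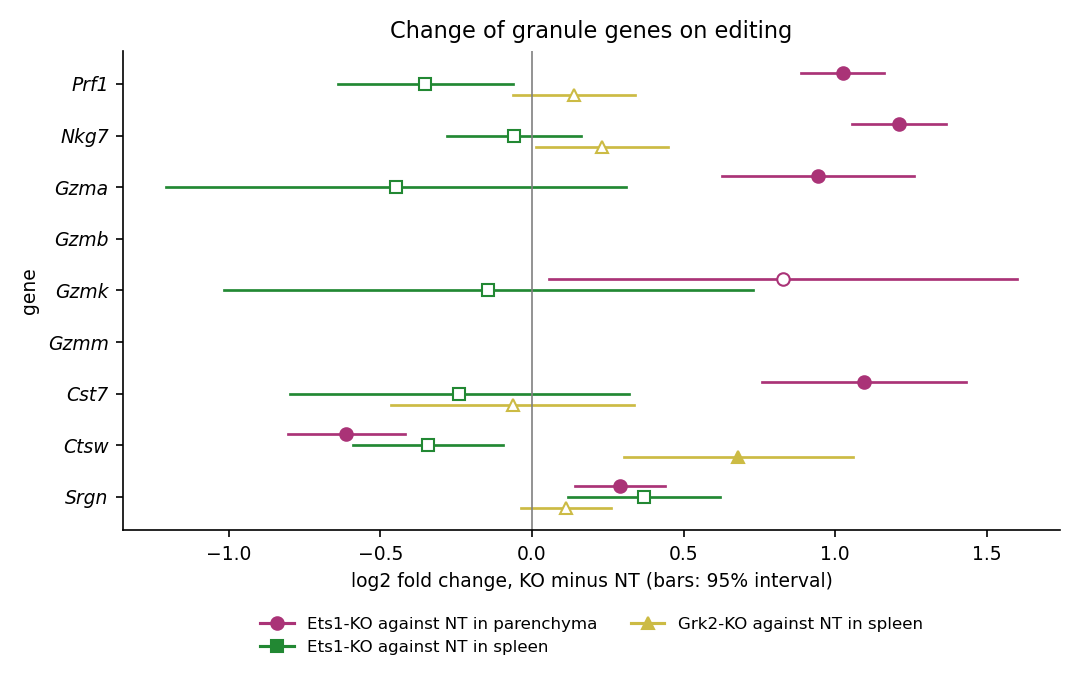
Log2 fold change of KO against NT for each tested granule gene in the 3 comparisons, with 95% intervals from limma. Filled symbols passed an adjusted p of 0.05 and open symbols did not, and *Gzmb* and *Gzmm* were not tested. *Prf1*, *Nkg7*, *Gzma* and *Cst7* lie near 1 in the parenchyma and at or below 0 in the *Ets1*-KO cells of the spleen.

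Whether *Ets1* editing had a different effect in the 2 tissues was tested on the log2 ratio of each KO library to the control of the same number, 3 ratios per tissue. The effect was larger in the parenchyma for 4 of the 7 tested members, *Prf1*, *Nkg7*, *Gzma* and *Cst7*, compared with 0.675% of the 6520 genes tested. In either direction 2.1% of these genes passed. For *Prf1* the ratios were 0.84, 1.07 and 1.16 in the parenchyma and -0.80, -0.12 and -0.13 in the spleen, a difference of 1.38 ± 0.15 (limma adjusted p = 2.49e-07). For *Nkg7* the spleen ratios lay between -0.12 and -0.010, and the difference was 1.27 ± 0.14 (limma adjusted p = 1.85e-07). The ratios of the 2 tissues did not overlap for either gene, and both differences also passed without any 1 of the 3 replicates.

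*Gzma* differed by 1.39 ± 0.34 (limma adjusted p = 0.0205), with parenchyma ratios of 0.89, 1.09 and 0.85 and spleen ratios of -0.39, -0.46 and -0.50. It no longer passed when any 1 replicate was left out (adjusted p between 0.0612 and 0.174), although the difference stayed between 1.32 and 1.45. *Cst7* differed by 1.34 ± 0.32 (limma adjusted p = 0.0205), but its spleen ratios were scattered, -0.55, 0.69 and -0.86. It did not pass without replicate 1 (adjusted p = 0.158), without replicate 3 (adjusted p = 0.145) or without the replicate block (adjusted p = 0.0568).

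The effects on *Ctsw* and *Srgn* pointed the same way in both tissues, and no difference was detected. For *Ctsw* the difference was -0.27 (95% interval -0.59 to 0.051) and for *Srgn* -0.079 (95% interval -0.36 to 0.20). For *Gzmk* it was 0.97 (95% interval -0.16 to 2.10), too wide to tell.

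**Figure D3:**
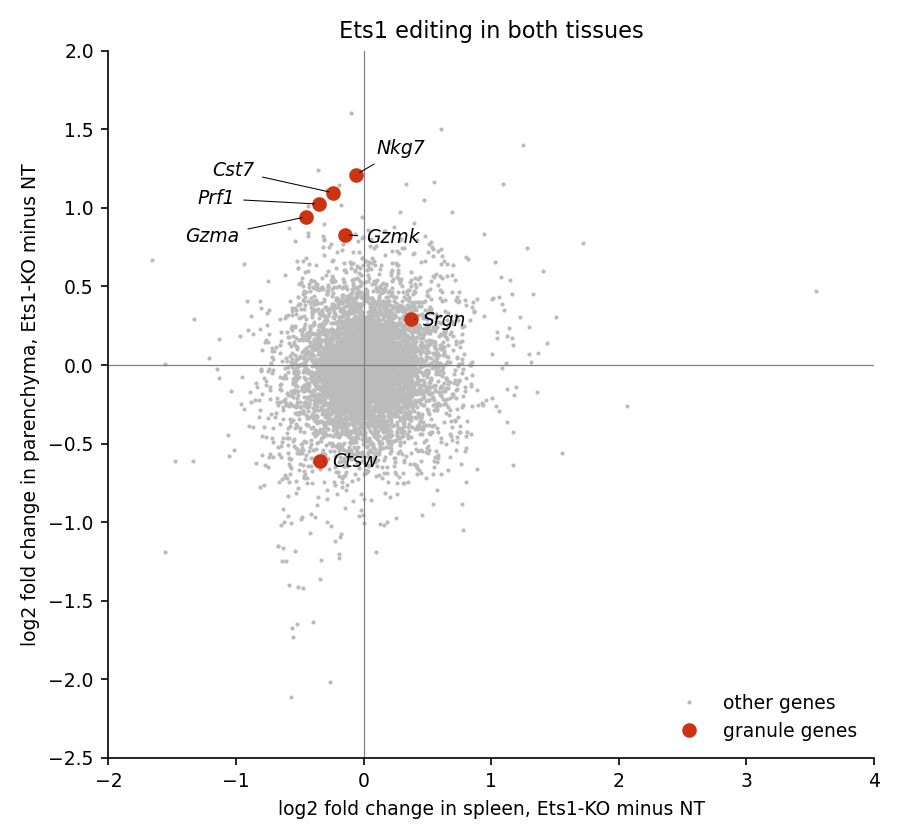
Log2 fold change of *Ets1*-KO against NT in the spleen (x axis) and in the parenchyma (y axis) for the 6520 genes tested in both tables, as grey points, with the 7 granule genes in red. *Nkg7*, *Cst7*, *Prf1*, *Gzma* and *Gzmk* lie together at the upper edge, between 0.83 and 1.21 in the parenchyma and between -0.45 and -0.059 in the spleen, *Srgn* is above 0 in both and *Ctsw* below 0 in both.

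In *Grk2*-KO cells of the spleen, 1 of the 5 tested members, *Ctsw*, passed the threshold, compared with 1.56% of the 6985 genes tested. *Ctsw* rose from 39.0, 37.7 and 35.4 normalized counts in controls to 62.0, 46.6 and 76.4, opposite to its direction in *Ets1*-KO cells of the parenchyma. The groups did not overlap, which was so for 1 of the 5 members and for 12.2% of all genes. The log2 fold change was 0.68 ± 0.19 (limma adjusted p = 0.0376), and the call was lost without any 1 replicate (adjusted p between 0.237 and 0.592), without the replicate block (adjusted p = 0.205), after upper quartile scaling (0.0673), after quantile normalization (0.093) and in DESeq2 (0.999).

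*Prf1* had 215, 184 and 174 normalized counts in controls and 211, 195 and 224 in *Grk2*-KO cells, and *Nkg7* 180, 164 and 122 and 207, 151 and 187. Both pairs of groups overlapped, with log2 fold changes of 0.14 (95% interval -0.061 to 0.34) and 0.23 (95% interval 0.013 to 0.45; limma adjusted p = 0.44). The log2 fold changes of *Srgn* and *Cst7* were 0.11 and -0.064.

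The remaining granzymes were at the limit of detection in this experiment. *Gzma* had between 1 and 5 reads in each control library and between 4 and 11 in each KO library, and *Gzmk* between 0 and 2 reads in all 6. *Gzmm* had 1, 2 and 2 reads in controls and 5, 7 and 5 in KO cells, and its normalized counts did not overlap, but with no filter its limma adjusted p was 0.606. *Gzmbl2* had 16.3, 21.1 and 16.2 normalized counts in controls and 29.7, 28.0 and 30.0 in *Grk2*-KO cells, again with no overlap, at a log2 fold change of 0.69 (adjusted p = 0.272).

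The level of several granule genes differed between the 3 sets of control cells. Among all genes with enough reads, between 49.9% and 64.6% did not overlap between a pair of these sets, so such differences are not particular to the granule genes. Levels are given as RPM, because the tables had been normalized separately, and as a description without a test. *Prf1* stood at 1077, 928 and 902 RPM in parenchyma controls, at 232, 176 and 150 in spleen controls of the *Ets1* experiment and at 168, 142 and 131 in those of the *Grk2* experiment. The parenchyma was thus 5.21 and 6.59 times as high as the 2 sets of spleen controls, which overlapped each other. *Gzma* followed the same order, with means of 39.6, 11.8 and 2.24 RPM, and no 2 of these sets overlapped.

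*Nkg7* had a different order. It was highest in spleen controls of the *Ets1* experiment (651 ± 31.9 RPM, SD, n = 3), lower in parenchyma controls (389 ± 54.4) and lowest in spleen controls of the *Grk2* experiment (120 ± 25.1), with no overlap between any 2 of these sets. *Prf1* was thus far higher in the parenchyma than in the spleen of the *Ets1* experiment, and *Nkg7* lower, before any editing of *Ets1*.

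*Srgn* was highest in parenchyma controls (638 ± 37.4 RPM), next in spleen controls of the *Grk2* experiment (496 ± 29.9) and lowest in those of the *Ets1* experiment (182 ± 27.5). *Ctsw* stood at 278 ± 2.26, 220 ± 18.6 and 28.8 ± 1.97 in the parenchyma, the spleen of the *Ets1* experiment and the spleen of the *Grk2* experiment. None of these sets overlapped. *Cst7* had similar means, at 32.6 ± 7.12, 30.8 ± 9.79 and 32.9 ± 6.04, with all 3 sets overlapping. *Gzmk* and *Gzmm* did not exceed 9.06 and 5.83 RPM in any control library.

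**Figure D4:**
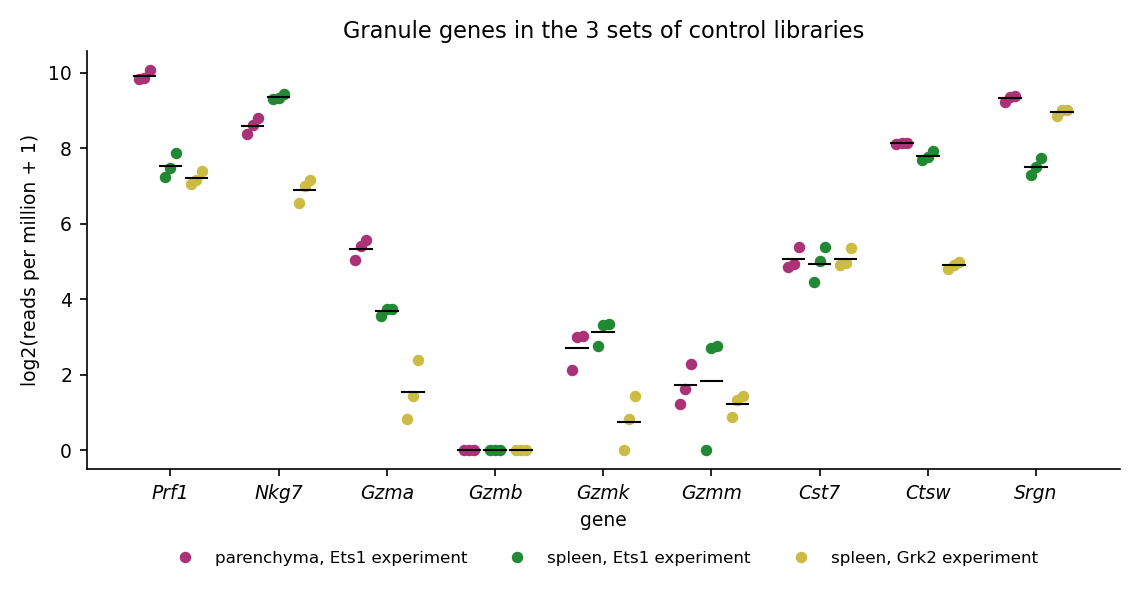
Level of each granule gene in the control libraries, as log2(RPM + 1), in the parenchyma, the spleen of the *Ets1* experiment and the spleen of the *Grk2* experiment, with black lines for the means (n = 3). *Prf1* and *Gzma* are highest in the parenchyma, *Nkg7* in the spleen of the *Ets1* experiment, and *Cst7* overlaps between all 3 sets.

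The 2 sets of spleen controls came from the same tissue and time but differed widely. *Ctsw* was 7.65 times and *Nkg7* 5.43 times as high in the *Ets1* experiment as in the *Grk2* experiment, and *Srgn* was 0.367 times as high. For *Gzma* the ratio was 5.28, but it rests on 8 reads in the 3 controls of the *Grk2* experiment and was 9.55 without replicate 1 of those controls. Among all genes with enough reads, 61.7% did not overlap between these 2 sets, compared with 49.9% between parenchyma and spleen controls of the *Ets1* experiment and 64.6% between parenchyma controls and spleen controls of the *Grk2* experiment. Differences in level between tissues therefore cannot be told apart from differences between experiments. Summed CD8 T and NK cell markers were 140 to 176 RPM in spleen controls of the *Ets1* experiment and 345 to 443 in those of the *Grk2* experiment, and their part in these levels was not tested.

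Genes of the machinery that activates granzymes and moves and releases the granule are a separate list. Of its 12 tested genes for granule processing and degranulation (*Ctsc*, *Rab27a*, *Unc13d*, *Stx11* and others) 0 rose and 1 fell in parenchyma *Ets1*-KO cells, where 2.27% of all genes tested rose and 2.96% fell. The gene that fell was *Lamp2*, a membrane protein of lysosomes (218 ± 30.3 to 151 ± 16.8 normalized counts, log2 fold change -0.52 ± 0.12, limma adjusted p = 0.000495). Their median log2 fold change was -0.044, near the -0.029 of all genes tested, and 1 of the 12 had an unadjusted p under 0.05, compared with 16.9% of all genes tested. None passed in either spleen comparison, where 2.22% (*Ets1*) and 1.56% (*Grk2*) of all genes tested passed. *Serpinb9*, the inhibitor of granzyme B, had a log2 fold change of 0.095 in the parenchyma (95% interval -0.18 to 0.37).

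Of 11 tested transcription factors tied to cytotoxic programmes, 1 rose and 1 fell in parenchyma *Ets1*-KO cells, where 2.27% of all genes tested rose and 2.96% fell. Before the threshold, 7 were higher and 4 lower, and 5 had an unadjusted p under 0.05, compared with 16.9% of all genes tested. *Runx3*, *Id2* and *Zeb2* were higher and just missed the threshold (log2 fold changes of 0.28, 0.21 and 0.43, limma adjusted p = 0.0635, 0.0544 and 0.0585). *Tbx21*, the gene of T-bet, went from 548 ± 10.2 to 697 ± 37.6 normalized counts (log2 fold change 0.35 ± 0.084, limma adjusted p = 0.00169). *Tcf7*, the gene of TCF1, which marks resting and memory T cells, went from 45.8 ± 5.56 to 26.9 ± 13.2 (log2 fold change -0.86 ± 0.24, limma adjusted p = 0.00937), with overlapping groups. None passed in the spleen, where 2.22% (*Ets1*) and 1.56% (*Grk2*) of all genes tested passed. *Eomes*, the other T-box factor of killer cells, had a mean below 1 normalized count in every group.

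Of 11 death ligands and effector cytokines 5 had enough reads to be tested, and 3 of them, all chemokines, rose in parenchyma *Ets1*-KO cells, compared with 2.27% of all genes tested. *Ccl4* went from 1165 ± 270 to 1809 ± 348 normalized counts (log2 fold change 0.64 ± 0.072), *Ccl3* from 319 ± 51.8 to 482 ± 64.6 (0.60 ± 0.093) and *Ccl5* from 2010 ± 231 to 2614 ± 255 (0.38 ± 0.068), with limma adjusted p between 4.63e-16 and 2.95e-06. CCL3, CCL4 and CCL5 are chemokines that effector T cells release. *Faslg*, the ligand of the other killing pathway of T cells, had a log2 fold change of 0.18 (95% interval -0.14 to 0.51), and *Ifng* one of 0.42 (limma adjusted p = 0.215).

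In the spleen *Ccl5* rose in *Ets1*-KO cells (0.80 ± 0.11 on the log2 scale, limma adjusted p = 0.000166) and fell in *Grk2*-KO cells (-0.59 ± 0.088, adjusted p = 3.20e-07). In the *Grk2* comparison its groups overlapped, and the ratios of single pairs were scattered, at -0.058, -0.92 and -0.79. The log2 ratios of KO to control were higher in the parenchyma than in the spleen for *Ccl4* (difference 1.57 ± 0.20, limma adjusted p = 6.52e-06) and *Ccl3* (1.03 ± 0.21, adjusted p = 0.00408), as they were for *Prf1* and *Nkg7*. These were 2 of the 4 genes of this list tested for the difference, compared with 0.675% of all genes tested. *Ccl5* went the other way, at 0.38 in the parenchyma and 0.80 in the spleen, and its difference did not pass.

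Over the 9 log2 ratios of KO to control, 3 from each table, the pattern of *Prf1* was most like those of *Cldnd1* (Pearson's r = 0.950), *Pik3ap1* (0.946) and *Rnh1* (0.945) among 6207 genes. That of *Nkg7* was most like those of *Rnh1* (0.977), *Rngtt* (0.973) and *Atp2b4* (0.963). *Prf1* and *Nkg7* had an r of 0.918 with each other. The 9 points fall into 3 experiments and share their libraries, so that these values describe likeness and were not tested. The log2 fold change of *Rnh1* was 0.55 in the parenchyma, -0.16 in the spleen of the *Ets1* experiment and 0.081 in that of the *Grk2* experiment.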

How the data were processed

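RNA of 18 libraries, 3 per group, was analysed. According to the methods and the processing notes, the authors aligned single-end reads of Collibri 3′ mRNA libraries untrimmed to Rnor_6.0 with STAR 2.7.2b, made gene counts with HTSeq 1.0.0 and normalized them with DESeq2 (poscounts), and corrected for the animal where this applied. The deposited signal values are these counts divided by the size factor of the library, in 3 tables normalized separately. All positive values (100%, tolerance 0.01) were multiples of 1 step per library, so the reads were recovered. Precision is limited by depth, and the floor of 3 reads covers counting error only.

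Within each table, limma 3.58.1 in R 4.3.3 (lmFit, eBayes with a trend) was run on log2(normalized count + 1) for every gene whose mean reached 10, with the replicate number as a block, two-sided, and Benjamini-Hochberg adjustment over all genes tested (threshold 0.05). A fold change on this scale understates that of low genes. Control levels are recovered reads per 1000000 (RPM). The labels do not state which libraries share an animal, so p-values cannot be said to measure the spread between animals. In the spleen tables they rest mostly on the trend over all genes and only in part on the spread of each gene between these samples. The prior degrees of freedom were 22.0 in the spleen *Ets1* table and 141 in the *Grk2* table. In the parenchyma table they rest on the trend alone, because the prior degrees of freedom were not finite. The tests were tested on simulated data. Alternatives were no block, pseudocounts of 0.1 and 5, no filter, a minimum of 50, quantile and upper quartile scaling, no trend, each replicate left out, and edgeR 4.0.16 and DESeq2 1.42.0 on recovered reads.

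The members, gene lists, marker lists and motifs were chosen with earlier results of these data known. By rule, values are given for the members, the edited genes, the list genes that passed, and the 3 genes most like *Prf1* and *Nkg7*. Other genes of the lists and markers are named as examples of their list. *Gzmbl1*, *Gzmbl2*, *Gzmbl3*, *Gzmc*, *Gzmf*, *Gzmn*, *Serpinb9*, *Cd4*, *Cd8a*, *Klrk1*, *Fcgr3a*, *Klrd1*, *Klrc1*, *Fcer1g*, *Eomes*, *Runx3*, *Id2*, *Zeb2*, *Faslg* and *Ifng* were added after their values were seen, as was leaving out single control libraries from the ratios of control levels. The authors' fold changes and p-values were not used, nor were 8 columns of human values.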

Additional observations from a re-analysis of the deposited data

Results flagged for a closer look

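The effect of *Ets1* editing on 4 granule genes differed between parenchyma and spleen by a test of the difference itself, limma on 3 log2 ratios per tissue with Benjamini-Hochberg adjustment over 6520 genes. The difference was 1.38 for *Prf1* (95% interval 1.07 to 1.69), 1.27 for *Nkg7* (0.99 to 1.55), 1.39 for *Gzma* (0.71 to 2.08) and 1.34 for *Cst7* (0.68 to 1.99). In the parenchyma the KO library was the higher one in 3 of 3 pairs for each of the 4 genes. In the spleen it was the higher one in 0 of 3 pairs for *Prf1*, *Nkg7* and *Gzma* and in 1 of 3 for *Cst7*. The 2 tissues were enriched for T cells in different ways. The spleen KO libraries were sequenced more deeply than their controls, and the one of replicate 3 stood apart from its group. The level of *Ets1* did not check the knockout in either tissue. The part of the enrichment, of depth and of that library was not tested.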

How the results depend on the processing

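Of 310 log2 fold changes and differences of single members under the alternatives, 281 kept their direction and their side of the threshold, 27 kept the direction but lost the call, 1 gained a call (*Srgn* in the spleen without replicate 2) and 1 reversed, *Cst7* in *Ets1*-KO cells of the spleen without replicate 3 (0.071, and between -0.70 and 0.071 with 1 replicate left out). Without a trend in eBayes no member passed in any comparison (0), and 3, 0, 0 and 2 genes passed in the parenchyma, the spleen *Ets1* and *Grk2* tables and the difference between tissues, where 366, 155, 109 and 137 had passed. Without the replicate block 200, 71, 19 and 47 genes passed, and 6, 0, 0 and 3 members. Samples of the same number deviated together with correlations of 0.13, 0.16 and -0.0030 in the parenchyma, 0.089, 0.077 and 0.18 in the spleen *Ets1* table and 0.14, 0.0062 and 0.12 in the *Grk2* table, so that the numbers alone do not show a pairing. With no filter 212 and 242 genes passed in the 2 *Ets1* comparisons. With a minimum of 50, 60 genes and 0 members passed for *Grk2*, and 2 members for the difference, fewer being tested. DESeq2 passed 90, 48 and 9 genes in the 3 tables, and edgeR 238 in the spleen *Ets1* table. In the *Grk2* comparison 0 members passed with quantile normalization, upper quartile scaling or DESeq2.

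Leaving out 1 replicate at a time, 163 to 277 genes passed in the parenchyma (225 without replicate 1 and 163 without replicate 2), 3 to 232 in the spleen *Ets1* table (3 without replicate 1), 6 to 50 for *Grk2* (45, 6 and 50 without replicates 1, 2 and 3) and 28 to 112 for the difference (28 and 69 without replicates 1 and 2). Members that passed numbered 5 in the parenchyma, 0 to 1 in the spleen *Ets1* table, 0 for *Grk2* and 2 to 3 for the difference. Genes that passed in the parenchyma were 159 higher and 207 lower, but 143 and 124 with quantile normalization, 194 and 160 with edgeR and 62 and 28 with DESeq2. For *Grk2* they were 65 and 44, but 35 and 44, and 37 and 44 with upper quartile scaling, and 43 and 47 with edgeR. No scaling moved the median of all genes by over 0.1. The causes were not tested. Few reads limit *Gzmk* and *Gzmm*, and whether depth limits *Gzmb* was not tested.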
